A study of Homo sapiens with 6 samples.

Results

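The genes described here are 9 genes of MHC class I antigen presentation, chosen by name from the 58302 genes of the deposited table: HLA-B, HLA-C, HLA-E, HLA-F, B2M, TAP1, TAP2, TAPBP and NLRC5. MHC class I molecules carry peptides from proteins made inside a cell to its surface, where CD8+ T cells and natural killer cells read them. The proteasome cuts proteins to peptides, the TAP1 and TAP2 transporter moves the peptides into the endoplasmic reticulum (ER), and TAPBP (tapasin) holds the transporter beside an empty class I molecule until a peptide fits. A class I molecule is a heavy chain, here HLA-B, HLA-C, HLA-E or HLA-F, joined to the light chain B2M (beta-2-microglobulin). NLRC5 is a transcriptional coactivator of the class I heavy chain genes and of B2M and TAP1, and tumor cells are known to lower the pathway as 1 way to escape T cells.

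RNA was sequenced from MDA-MB-231-DR, which was derived from MDA-MB-231, a line of triple-negative breast cancer, is resistant to doxorubicin and was kept in medium with a low concentration of doxorubicin. The control group held 3 libraries of these cells, and the other group held 3 libraries of the same cells treated with Cyperotundone (CYT), a compound of sedge. The sample titles name MDA-MB-231-DR, while the cell line field of the labels names MDA-MB-231 only. The dose and time of CYT for these libraries are not given in the sources used here. The comparison asks which genes changed with CYT in resistant cells, and all results come from 1 resistant line. The methods speak in general of independent experiments behind the data of each group but do not name the sequenced libraries, so separate cultures are not stated for these and the p-values measure the spread between these libraries, which may be technical.

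The summed gene counts were from 14050849 to 17770102 in control libraries and from 13056270 to 14106017 in CYT libraries. CYT replicate 2 stood apart from the other CYT libraries, with a correlation of log2 CPM of 0.914 and 0.913 with replicates 1 and 3 against 0.976 between these, and with the highest chi-square per gene (148 and 141). Without it 5523 genes were called in place of 4451. Control replicate 2 also stood apart in its group, with correlations of 0.958 and 0.964 with replicates 1 and 3 against 0.976 between these. Its chi-square per gene was 124 and 83.7 against 59.7. Without control replicate 2, 3603 genes were called. Of 8 genes fixed as markers of the line, 8 were detected and 3 were lower with CYT, namely VIM, AXL and PLAUR, and their summed level was from 5112 to 6606 CPM (counts scaled to a common library size) in control and from 3161 to 3955 CPM in CYT. Of 5 markers that a triple-negative line lacks or holds at a low level, ESR1 and PGR had at most 4 counts in a library. ERBB2 (720 to 1327 counts in control, 236 to 653 in CYT), FOXA1 (34 to 141 and 35 to 132) and GATA3 (62 to 93 and 33 to 46) were detected and not called. Of 11 leukocyte markers 2 passed the filter on low counts, and 1 of these, the myeloid marker CD14, rose from 10, 4 and 19 counts to 51, 59 and 49. The other, CD68, had the most counts of the list in control, at 378, 163 and 90 against 204, 47 and 88 in CYT, and was not called. Among those not tested, ITGAM had 3, 2 and 3 against 8, 16 and 16 counts and LYZ 0, 0 and 0 against 0, 11 and 6. CSF1R went the other way, with 20, 8 and 7 against 2, 8 and 3. The summed level of the leukocyte markers was from 8.56 to 25.9 CPM in control and from 11.2 to 19.5 CPM in CYT, with CD3E and TYROBP at 0 in every library and PTPRC at 0, 0 and 0 against 7, 2 and 2 counts. The epithelial markers summed to between 17.6 and 21.2 CPM in control and to between 5.05 and 20.3 CPM in CYT, with none of 3 tested genes called. The endothelial and fibroblast markers summed to between 21.8 and 37.7 CPM in control and to between 8.40 and 11.0 CPM in CYT, with KDR higher and COL1A1 and PDGFRB lower among 5 tested genes. For comparison with these marker lists, 28.6% of all tested genes were called, 15.7% higher and 12.9% lower. The part of any of these cells in the results below was not tested. In such bulk libraries fewer cells of a type and less RNA per cell cannot be told apart.

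Class I promoters are known for a compact block of elements upstream of the start site, an interferon-stimulated response element and a kappa-B element followed by the X and Y boxes to which RFX, CREB and NF-Y factors and, through RFX, NLRC5 are recruited. The promoter table of RefSeq on GRCh38.p14 held 7 of the 9 genes, and the 250 bases before each start site were searched on both strands. The next 4 sequences are shown because HLA-B and HLA-C, close copies of each other, rose to unlike degrees, because TAP1, which was called, and PSMB9, which was not, share 1 promoter region, and because B2M is the partner of every heavy chain. Each runs 5′ to 3′ on the strand named, and capitals mark the letters that match a searched motif. HLA-B is at chr6:31357189-31357429 on the minus strand, HLA-C at chr6:31272131-31272342 on the minus strand, B2M at chr15:44711317-44711486 on the plus strand, and the stretch between the coding gene exons of TAP1 and PSMB9 at chr6:32853979-32854147 on the plus strand, which is the strand of PSMB9. The motif matches of TAP1 lie in its annotated first exon or intron and are given below by their letters alone.
HLA-B: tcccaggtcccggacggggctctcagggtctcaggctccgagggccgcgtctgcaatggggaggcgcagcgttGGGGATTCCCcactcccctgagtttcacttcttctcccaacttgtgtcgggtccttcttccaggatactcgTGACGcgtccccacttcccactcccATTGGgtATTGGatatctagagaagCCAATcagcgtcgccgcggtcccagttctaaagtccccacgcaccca
HLA-C: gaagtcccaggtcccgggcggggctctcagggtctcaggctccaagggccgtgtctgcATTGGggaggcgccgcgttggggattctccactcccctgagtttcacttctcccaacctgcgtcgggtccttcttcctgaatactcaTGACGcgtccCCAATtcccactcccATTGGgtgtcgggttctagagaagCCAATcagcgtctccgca
B2M: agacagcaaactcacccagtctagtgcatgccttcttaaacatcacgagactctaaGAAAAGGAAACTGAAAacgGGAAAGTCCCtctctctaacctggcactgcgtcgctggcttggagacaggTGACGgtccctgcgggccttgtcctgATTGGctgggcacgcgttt
TAP1 to PSMB9: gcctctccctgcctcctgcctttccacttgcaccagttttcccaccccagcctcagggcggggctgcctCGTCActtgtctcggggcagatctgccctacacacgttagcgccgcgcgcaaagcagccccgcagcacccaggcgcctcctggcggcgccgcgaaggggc

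The core of the interferon-stimulated response element, GAAA with any 2 bases and a further GAAA after it, matched in 5 of the 7 genes (B2M, HLA-F, TAP1, TAP2 and TAPBP), against 3.02% of all 35116 promoters of the table. Only this exact pattern was searched, so HLA-B and HLA-C may hold another form of the element. Both of their printed windows hold gagtttcacttct, which on the opposite strand comes near the pattern without matching it. The matched letters were GAAAAGGAAA and GAAACTGAAA in B2M, which overlap, TTTCTCTTTC in HLA-F on the opposite strand, TTTCGATTTC and TTTCGCTTTC in TAP1 on the opposite strand, GAAAGCGAAA in TAP2, and GAAAGTGAAA at a pair of overlapping places in TAPBP. A kappa-B pattern, GGG with any 2 bases, TT, any base and CC after it, matched in 4 genes (B2M, HLA-B, TAP1 and TAPBP) and in 5.07% of all promoters. HLA-B held GGGGATTCCC and HLA-C held no match, so this is a motif by which the windows of these 2 copies differed. TGACG, the core of the X2 box and part of the cyclic AMP response element, matched in 4 genes (B2M, HLA-B, HLA-C and TAP2) against 21.2%, and CCAAT, the Y box, in 5 genes (B2M, HLA-B, HLA-C, HLA-F and TAP1) against 32.0%. TTCNNNGAA, the gamma-activated site, matched in TAP1 alone, against 6.57%. In HLA-B and HLA-C the TGACG began 106 and 105 bases before the start and was followed by CCAAT or its reverse complement at, among others, 81 and 56 bases before the start in HLA-B and 80 and 56 in HLA-C, so the spacing of this block was nearly the same in both. A match describes letters only, and the table held no entry for HLA-E or NLRC5.

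**Figure D1:**
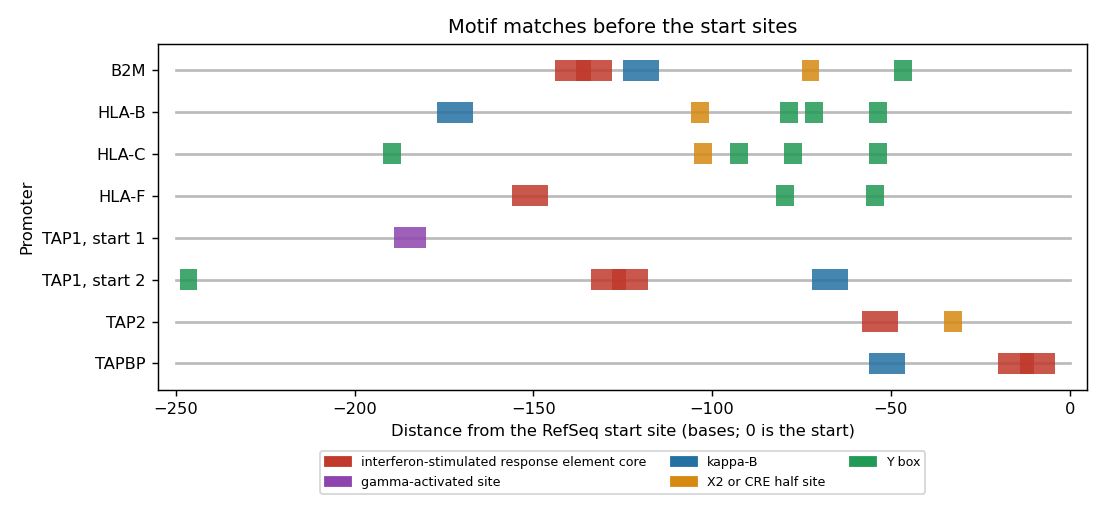
Position of each motif match in the 250 bases before the RefSeq start sites (x axis, bases, 0 is the start) for 7 genes, with TAP1 drawn for its 2 listed starts, start 2 being the one nearer to PSMB9. B2M, HLA-B and HLA-C show the TGACG match upstream of CCAAT matches, and the interferon-stimulated response element core appears in B2M, HLA-F, TAP1, TAP2 and TAPBP.

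All 9 genes passed the filter on low counts. The counts were scaled by the TMM method, which sets libraries to a common scale, and 15572 genes were tested by the quasi-likelihood method of edgeR, and a gene was called at an adjusted p under 0.05. Of the 9 genes 5 were called, against 28.6% of all tested genes. HLA-B, HLA-C, HLA-E and TAP1 were higher with CYT, where 15.7% of all tested genes were higher, and NLRC5 was lower, where 12.9% of all tested genes were lower. All 5 also had an absolute log2 fold change over 1, the additional criterion for a differentially expressed gene, which 27.4% of tested genes met. HLA-F, B2M, TAP2 and TAPBP were not called. In 7 of the 9 genes the CPM of control and CYT libraries did not overlap, against 46.1% of all tested genes, with 6 of them higher (23.4% of all tested genes) and 1 lower (22.7%). The median log2 fold change of the 9 genes was 0.92, and that of all tested genes was 0.0064. Without CYT replicate 2 the same number of the 9 genes was called, 4 higher and 1 lower, with log2 fold changes of 2.38 for HLA-B, 1.32 for HLA-C, 2.13 for HLA-E, 2.09 for TAP1 and -1.58 for NLRC5. Upper-quartile scaling moved the median of all genes to 0.16.

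**Figure D2:**
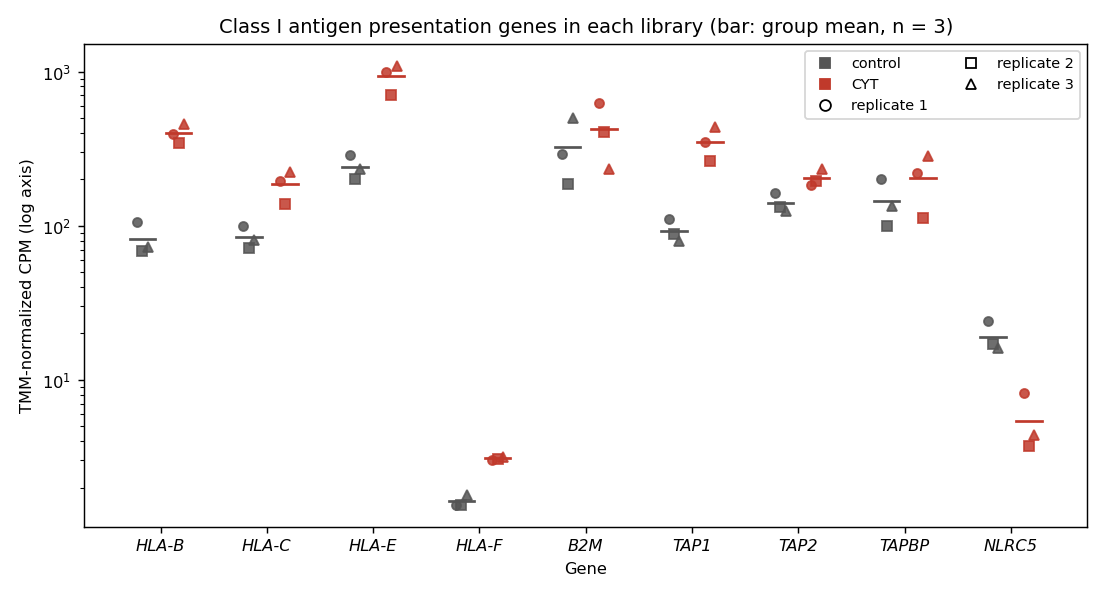
TMM-normalized CPM (log axis) of the 9 genes in each of the 6 libraries, with gray for control, red for CYT, a marker shape for each replicate and a bar at the mean of 3 libraries. HLA-B, HLA-C, HLA-E and TAP1 lie higher in every CYT library than in any control library, NLRC5 lies lower, and B2M and TAPBP overlap.

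HLA-B, a classical heavy chain that presents peptides to CD8+ T cells, showed the largest change of the 9 genes. Its gene (ENSG00000234745) is annotated at chr6:31269491-31357188 on the minus strand of hg38. The raw counts of HLA-B were 1706, 1284 and 1018 in the 3 control libraries, given in the order of their replicate numbers here and below, and 5586, 4832 and 5771 in the CYT libraries. On the TMM scale these were 106, 68.4 and 73.2 CPM against 394, 344 and 459 CPM. The lowest CYT library was thus above the highest control library by a wide margin, and the spread within each group was small beside the gap. The mean rose from 82.4 ± 20.3 (SD, n = 3) to 399 ± 57.5 CPM, a log2 fold change of 2.27 (SE 0.31, 95% interval 1.59 to 2.96) or 4.84-fold, with an adjusted p = 0.0012 in edgeR. The exact permutation test on the CPM gave p = 0.1 (two-sided), the smallest that 3 against 3 libraries allow, and it gave the same p for each of the 7 genes whose groups did not overlap.

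HLA-C, the neighboring classical heavy chain and the main ligand of killer cell immunoglobulin-like receptors on natural killer cells, rose less. It is annotated at chr6:31268749-31272130 on the minus strand (ENSG00000204525). Its counts were 1609, 1341 and 1128 in control and 2752, 1928 and 2820 in CYT, or 99.8, 71.4 and 81.1 CPM against 194, 137 and 224 CPM. CYT replicate 2 was the lowest of the CYT libraries but remained above all control libraries. The mean rose from 84.1 ± 14.4 to 185 ± 44.1 CPM (SD, n = 3), with a log2 fold change of 1.14 (SE 0.31, 95% interval 0.45 to 1.82, edgeR adjusted p = 0.0211). This call was lost when 1 library was left out, with an adjusted p of 0.0678 without CYT replicate 1, 0.081 without CYT replicate 3, 0.0618 without control replicate 2 and 0.0862 without control replicate 3.

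The ratio of HLA-B to HLA-C within each library does not depend on the scaling between libraries. In FPKM, fragments per kilobase and library size, it was 1.08, 0.972 and 0.917 in control and 2.06, 2.55 and 2.08 in CYT. HLA-B was above HLA-C in every CYT library, while the order in control libraries depends on the gene length used. With merged exons as length, the level of HLA-B was 32.2, 23.7 and 23.7 in control, below HLA-C at 37.0, 30.1 and 32.0, and 129.8, 121 and 141 in CYT, above HLA-C at 77.8, 58.9 and 83.8. The log2 ratio differed by 1.17 between the groups, with an exact permutation p = 0.1, and by 1.07 to 1.23 with any 1 library left out.

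HLA-E, a nonclassical heavy chain that presents leader peptides of other class I molecules to the natural killer cell receptor CD94/NKG2A, was the most abundant of the 4 heavy chains described here. It lies at chr6:30489467-30494205 on the plus strand (ENSG00000204592). Its counts were 4614, 3748 and 3255 in control and 14116, 9918 and 13681 in CYT, or 286, 199.6 and 234 CPM against 996, 706 and 1087 CPM. Each CYT library lay above the highest control library, with CYT replicate 2 again the lowest of its group. The mean rose from 239.9 ± 43.5 to 929.5 ± 199 CPM (SD, n = 3), a log2 fold change of 1.95 (SE 0.30, 95% interval 1.28 to 2.62) or 3.87-fold, with an adjusted p = 0.00197 in edgeR.

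HLA-F, a nonclassical heavy chain found on activated cells and bound by killer cell immunoglobulin-like receptors, was scarce. Its position is chr6:29722775-29738528 on the plus strand (ENSG00000204642). Its counts were 25, 29 and 25 in control and 43, 43 and 40 in CYT, or 1.55, 1.54 and 1.80 CPM against 3.03, 3.06 and 3.18 CPM. The 2 groups did not overlap, but at this depth the change did not pass the test, with a log2 fold change of 0.92 (SE 0.39, 95% interval 0.045 to 1.80, edgeR adjusted p = 0.107). The antisense gene HLA-F-AS1 shares 535 exonic bases with HLA-F, 12.3% of its exons, and had 27, 36 and 29 counts in control and 56, 30 and 45 in CYT. Whether counting used the strand is not stated, so reads of HLA-F and HLA-F-AS1 may be mixed.

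B2M, the light chain that holds a class I heavy chain in its folded form, was not called. The gene lies at chr15:44711477-44718877 on the plus strand (ENSG00000166710). Its counts were 4724, 3481 and 6898 in control and 8870, 5712 and 2934 in CYT, or 293, 185 and 496 CPM against 626, 407 and 233 CPM. The groups overlapped, with CYT replicate 3 below 2 of the control libraries and control replicate 3 above 2 of the CYT libraries. The log2 fold change was 0.38 (SE 0.44, 95% interval -0.62 to 1.37, edgeR adjusted p = 0.558), and it was -0.022 without CYT replicate 1. The interval includes both no change and a rise as large as that of HLA-C, so these libraries do not show that B2M was steady.

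The summed FPKM of these 4 heavy chains, which are not all the heavy chain genes of the cell, was 4.6, 5.04 and 2.17 times that of B2M in control and 7.08, 8.06 and 21.1 times in CYT. The size of this ratio depends on the gene lengths used, which for B2M were 12755 bp in FPKM and 6079 bp as merged exons. It is therefore read as a change between the groups and not as heavy chains per B2M. All 3 CYT libraries had a higher ratio than all 3 control libraries, and CYT replicate 3, which had the lowest B2M of its group, stood far above the rest. The mean log2 ratio was 1.88 ± 0.67 in control and 3.41 ± 0.86 in CYT (SD, n = 3), a difference of 1.53 (exact permutation p = 0.1). With any 1 library left out the difference was from 1.03 to 1.82, and with counts per kilobase of merged exons in place of FPKM it was 1.49.

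**Figure D3:**
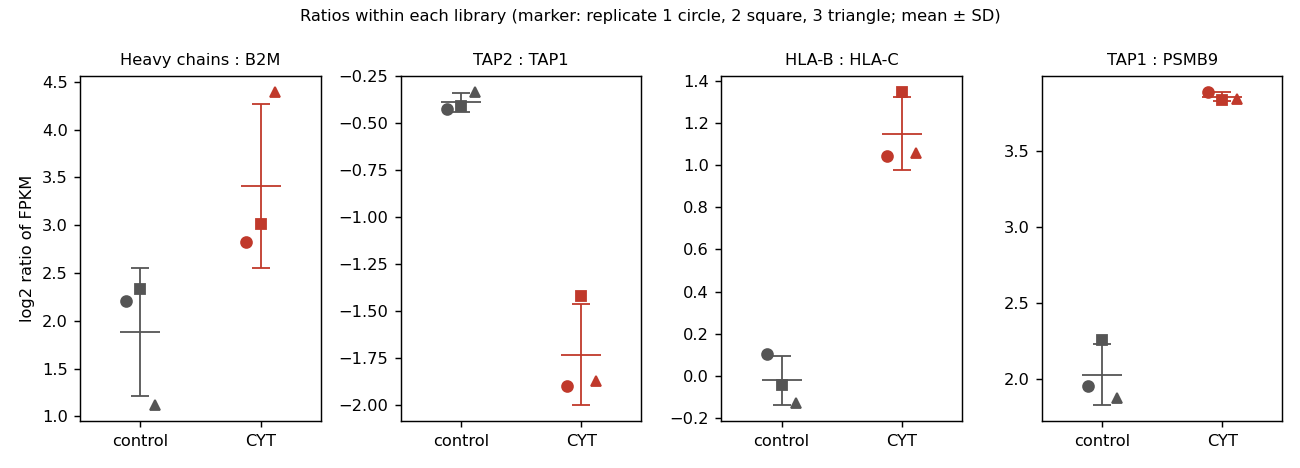
log2 ratio of FPKM within each library (y axis) for the 4 heavy chains summed to B2M, TAP2 to TAP1, HLA-B to HLA-C and TAP1 to PSMB9, with 1 marker per library and lines at the mean ± SD of 3 libraries. In each panel the control (gray) and CYT (red) libraries do not overlap, and the y axes differ between panels.

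TAP1, a subunit of the peptide transporter, rose with CYT. The annotation places it at chr6:32845209-32853978 on the minus strand (ENSG00000168394). Its counts were 1774, 1666 and 1107 in control and 4927, 3690 and 5478 in CYT, or 110.0, 88.7 and 79.6 CPM against 347, 263 and 435 CPM. The CYT libraries were all well above the control libraries. The mean rose from 92.8 ± 15.6 to 348 ± 86.3 CPM (SD, n = 3), a log2 fold change of 1.91 (SE 0.31, 95% interval 1.22 to 2.60) or 3.76-fold, with an adjusted p = 0.00237 in edgeR.

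TAP2, the other subunit, with which TAP1 forms the transporter, was not called. It is found at chr6:32821833-32838780 on the minus strand (ENSG00000204267). Its counts were 2608, 2476 and 1737 in control and 2604, 2718 and 2946 in CYT, or 162, 132 and 125 CPM against 184, 193 and 234 CPM. The CYT libraries were each above the control libraries, but the gap between the groups was small. The log2 fold change was 0.55 (SE 0.27, 95% interval -0.065 to 1.16, edgeR adjusted p = 0.162). Among the alternatives TAP2 was called only after a correction for GC content and gene length, with a log2 fold change of 0.66 and an adjusted p = 0.0204. The ratio of TAP2 to TAP1 in FPKM was 0.745, 0.753 and 0.796 in control and 0.268, 0.373 and 0.273 in CYT. The ratio was nearly constant among control libraries and lower in each CYT library, with a log2 difference of -1.34 (exact permutation p = 0.1) and of -1.5 to -1.26 with any 1 library left out.

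TAPBP, which bridges the transporter and the heavy chain, was not called and its groups overlapped. Its locus is chr6:33299694-33314387 on the minus strand (ENSG00000231925). Its counts were 3234, 1869 and 1859 in control and 3115, 1564 and 3546 in CYT, or 200.5, 99.5 and 134 CPM against 219.7, 111 and 282 CPM. Replicate 2 was the lowest library in both groups, and each CYT library was above the control library of the same number. With the replicate number as a block the log2 fold change was 0.45 (edgeR adjusted p = 0.215). The log2 fold change was 0.50 (SE 0.40, 95% interval -0.40 to 1.40, edgeR adjusted p = 0.382), and after the correction for GC content and gene length it was 0.75 with an adjusted p = 0.024. With any 1 library left out it ran from 0.20 to 0.81, and TAPBP was called in none of these fits.

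TAP1 and PSMB9, a catalytic subunit of the immunoproteasome, are transcribed away from each other from starts that lie 488 bp apart in RefSeq. PSMB9 had 349, 265 and 229 counts in control and 253, 197 and 291 in CYT, a log2 fold change of 0.07 (SE 0.33, edgeR adjusted p = 0.889) whose sign changed with the settings. The FPKM ratio of TAP1 to PSMB9, chosen after the values were seen, was 3.87, 4.79 and 3.68 in control and 14.8, 14.3 and 14.3 in CYT. The ratio was almost the same in the 3 CYT libraries and above all control libraries, with a log2 difference of 1.82 (exact permutation p = 0.1) and of 1.75 to 1.94 with any 1 library left out. A long noncoding gene on the strand opposite TAP1, PSMB8-AS1, shares 456 exonic bases with it, 9.49% of the exons of TAP1. PSMB8-AS1 had 25, 13 and 12 counts in control and 117, 73 and 118 in CYT (log2 fold change 2.87, SE 0.47, edgeR adjusted p = 0.00248). Without strand its reads and those of TAP1 in the shared bases cannot be told apart.

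NLRC5 was the member that fell. The locus is chr16:56989485-57083531 on the plus strand (ENSG00000140853). Its counts were 386, 321 and 225 in control and 117, 52 and 55 in CYT, or 23.9, 17.1 and 16.2 CPM against 8.25, 3.70 and 4.37 CPM. No CYT library reached the lowest control library, and replicate 1 was the highest in both groups. The mean went from 19.1 ± 4.24 to 5.44 ± 2.46 CPM (SD, n = 3), a log2 fold change of -1.81 (SE 0.40, 95% interval -2.70 to -0.91) or 3.50-fold lower, with an adjusted p = 0.00909 in edgeR. NLRC5 thus moved in the direction opposite to HLA-B, HLA-C, HLA-E and TAP1, which are among the genes it is known to activate.

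**Figure D4:**
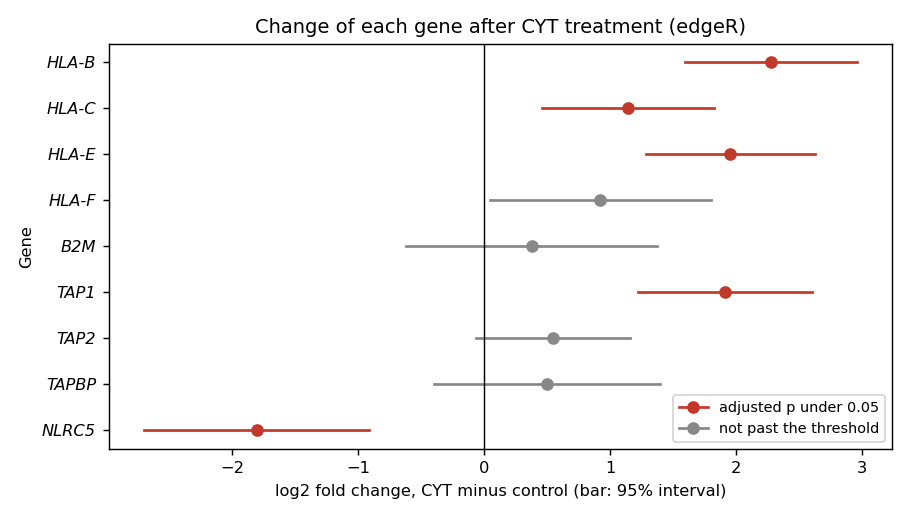
log2 fold change (x axis, CYT minus control) of the 9 genes with 95% intervals from edgeR, in red where the adjusted p was under 0.05 and in gray elsewhere. HLA-B, HLA-E, TAP1 and HLA-C lie to the right of 0 and NLRC5 to the left, and the interval of B2M crosses 0.

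Levels of different genes can be compared only per length. In FPKM, HLA-E was highest in control libraries at 59.7 ± 7.01 and B2M followed at 25.1 ± 12 (SD, n = 3). TAP1 at 16.7 ± 2.16, TAPBP at 16.3 ± 4.75, HLA-C at 13.3 ± 1.43, HLA-B at 13.2 ± 2.44 and TAP2 at 12.7 ± 1.24 formed a group whose neighbors did not differ beyond their spread, and the range of B2M, from 15.4 to 38.5, reached into this group. NLRC5 at 0.786 ± 0.133 and HLA-F at 0.187 ± 0.0197 were far lower. In CYT libraries HLA-E was again highest at 234 ± 36.6 FPKM, followed by HLA-B at 65.0 ± 4.89 and TAP1 at 63.2 ± 11.5, which did not differ beyond their spread. B2M at 33.6 ± 16.1, HLA-C at 29.6 ± 5.23, TAPBP at 23.2 ± 8.52 and TAP2 at 18.9 ± 1.65 came next, each within the spread of its neighbor. HLA-F at 0.360 ± 0.0191 and NLRC5 at 0.229 ± 0.103 were last, in the reverse of their control order, with overlapping ranges.

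The deposited FPKM divides by a length that is longer than the exons. In 10158 genes that had 50 counts or more throughout, the length implied by count and FPKM equaled the sum of all distinct annotated exons, overlapping ones counted more than once, in 92.1% within 1 bp, and the merged exons in 8.38%. For HLA-B the implied length was 6136 bp and the merged exons 3051 bp, for HLA-C 6232 and 2507 bp, and for TAP1 5481 and 4805 bp. The summed distinct exons gave the implied length in 7 of the 9 genes. The exceptions were TAP1, with a sum of 7778 bp, and B2M, with an implied length of 12755 bp and a sum of 13254 bp. The merged exons of B2M were 6079 bp. Merged exons still hold the exons of all annotated transcripts, and which transcripts the cells used was not examined. The place of B2M among the genes can thus differ on another length. Against merged exons the FPKM lowers the heavy chains more than TAP1. Per kilobase of merged exons and scaled by library size as in FPKM, HLA-C (33.0 ± 3.55) and HLA-B (26.5 ± 4.91) stood above TAP1 (19.1 ± 2.47) in control libraries, and in CYT libraries HLA-B (131 ± 9.83) stood above both HLA-C (73.5 ± 13) and TAP1 (72.1 ± 13.1), while HLA-E remained highest at 79.4 ± 9.32 and 311 ± 48.7. On this scale HLA-B was above 86.8% of the 15550 genes ranked in control and above 97.3% in CYT, HLA-E above 95.5% and 98.8%, and TAP1 above 82.2% and 95.2%. B2M went from 93.2% to 95.1%, and NLRC5 from 32.3% to 10.04%.

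Reads shared between close copies were a further concern for these genes. Of the 100-base windows in annotated transcripts, none in HLA-B, HLA-F, B2M, TAP1, TAPBP or NLRC5 occurred in the transcripts of another gene read on the same strand, and 0.126% did in HLA-C and 0.491% in HLA-E. In TAP2, 30.3% of windows also occurred in AL669918.1, a gene annotated over TAP2 on the same strand that had 17, 0 and 0 counts in control and 32, 4 and 7 in CYT. On the opposite strand, exons of the pseudogene AL671883.2 cover 542 bases of HLA-B exons (17.8%) and those of the pseudogene AL645939.1 cover 701 bases of HLA-F exons (16.1%), besides HLA-F-AS1 and PSMB8-AS1 above. AL671883.2 had 2 counts in CYT replicate 1 and 0 in the other libraries, and AL645939.1 had 0 in all 6. The pseudogene RPL23AP1, also on the opposite strand, covers 257 bases of HLA-F exons (5.92%) and had 5, 4 and 1 counts in control and 8, 35 and 8 in CYT. RPL3P2, a pseudogene inside the HLA-B locus that shares no exonic base with it, had 93, 179 and 102 counts in control and 49, 73 and 82 in CYT and was not called (log2 fold change -0.58, edgeR adjusted p = 0.287). MIR6891, LINC02571, AL671883.1, USP8P1 and WASF5P in the HLA-B locus and AC023825.1 and AC023825.2 in the NLRC5 locus never exceeded 3 counts and share no exonic base with these genes. The locus annotated for HLA-B extends over HLA-C by 2640 bp, but only 35 of these bases are exonic in both. The treatment of reads with several matches is not stated, and the HLA alleles of the line, which can differ from the reference, were not examined here.

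The peptide supply and its handling in the ER were described with lists of known genes. Of 12 tested genes for peptide loading and trimming in the ER, 3 rose, none fell and 9 were not called, against 28.6% of all tested genes called, with a median log2 fold change of 0.63. After the correction for GC content and gene length 8 were called, 7 higher and 1 lower, while called genes among all genes went from 4451 to 7240. The 3 that rose without this correction included TAPBPL (1.49, adjusted p = 0.0123 in edgeR), another peptide editor. The others were the aminopeptidases ERAP2 (1.76, adjusted p = 0.0107) and ERAP1 (1.17, adjusted p = 0.0213), which trim peptides to the length that class I molecules hold. ERAP2 went from 4.06 ± 0.733 to 13.8 ± 6.08 CPM and ERAP1 from 24.3 ± 2.01 to 54.7 ± 16.6 CPM (SD, n = 3). TAPBPL was not called without CYT replicate 1 (edgeR adjusted p = 0.053) or without control replicate 3 (0.0545), and ERAP1 was not called without control replicate 1 (0.0768) or without control replicate 3 (0.092). The general chaperones of class I folding were not called, with a log2 fold change of -0.25 for CALR, 0.70 for CANX and 0.72 for PDIA3.

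The proteasome genes did not move in 1 direction. Of 11 tested genes 1 rose, 1 fell and 9 were not called, against 28.6% of all tested genes called, with a median of 0.08. PSME2, a subunit of the PA28 activator that interferon induces, rose from 189.7 ± 21.8 to 357 ± 54.1 CPM (log2 fold change 0.91, SE 0.27, edgeR adjusted p = 0.0323), a call lost under 5 of 15 alternatives. PSME3, which forms the nuclear activator PA28 gamma, fell from 363 ± 32.9 to 80.5 ± 3.39 CPM (log2 fold change -2.17, SE 0.27, edgeR adjusted p = 0.000892). The immunoproteasome subunits PSMB8 (0.43), PSMB9 (0.07) and PSMB10 (0.70) were not called. Of 8 cytosolic peptidases, which can destroy peptides before transport, 2 fell and none rose, against 28.6% of all tested genes called, with a median of -0.38. The 2 were THOP1 (-1.24, edgeR adjusted p = 0.0175) and BLMH (-1.10, edgeR adjusted p = 0.0263), and neither was called without control replicate 1 or without control replicate 3, nor BLMH without CYT replicate 3 (edgeR adjusted p = 0.0997).

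Of 20 tested transcription factors that act at class I promoters, 4 rose, 3 fell and 13 were not called, against 15.7% of all tested genes higher and 12.9% lower, with a median of 0.13. These shares are near those of all genes. IRF3, which switches on interferon genes after pathogen sensing, rose from 117 ± 34.9 to 536 ± 218 CPM (log2 fold change 2.19, SE 0.40, edgeR adjusted p = 0.00371). IRF1, an activator of class I genes, rose from 37.2 ± 5.92 to 106 ± 37.5 CPM (log2 fold change 1.51, SE 0.35, edgeR adjusted p = 0.0115). RELA, the p65 subunit of NF-kappa-B that binds the kappa-B element, fell from 129 ± 61.6 to 35.6 ± 17.3 CPM (log2 fold change -1.85, SE 0.52, edgeR adjusted p = 0.0247), and RFXAP, a subunit of the RFX complex, fell from 3.66 ± 0.619 to 1.33 ± 0.37 CPM (log2 fold change -1.45, SE 0.43, edgeR adjusted p = 0.031). The others called were STAT2 and NFYB, which were higher, and NFYC, which was lower. None of these 3 was called without CYT replicate 1, CYT replicate 3 or control replicate 3, NFYC also not without control replicate 1 or 2, and STAT2 and NFYB not with no filter on low counts. With 1 library left out, the call of RFXAP was lost in 5 of 6 fits (edgeR adjusted p up to 0.106), all but that without CYT replicate 2, and that of RELA was lost without control replicate 1 (0.086) and without control replicate 3 (0.0812). IRF1 was not called without control replicate 3 (0.0504). RFX5, the DNA-binding subunit of the RFX complex, was not called (log2 fold change -0.43). With 1 library left out the list held from 1 to 7 called genes, and the lowest number came without control replicate 3.

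Of 21 listed genes of interferon ligands, receptors and signaling 13 were tested, of which 1 rose and 2 fell, against 28.6% of all tested genes called, with a median of 0.03. The ligands IFNA1, IFNB1, IFNE, IFNG and IFNK had 0 counts in all 6 libraries, which allows up to 3 counts in a library. The lambda interferons had few counts, with 0, 0 and 3 in control and 1, 0 and 3 in CYT for IFNL1, 0, 0 and 0 and 7, 0 and 1 for IFNL2, and 0, 0 and 0 and 3, 0 and 0 for IFNL3. USP18, an interferon-induced brake on the type I receptor, fell from 19.97 ± 2.09 to 3.95 ± 0.618 CPM (log2 fold change -2.33, SE 0.32, edgeR adjusted p = 0.00133), and IFNLR1, the receptor of interferon lambda, fell from 14.6 ± 0.998 to 4.62 ± 2.74 CPM (log2 fold change -1.66, SE 0.48, edgeR adjusted p = 0.0283). SOCS1, an inhibitor of JAK kinases, rose from 1.71 ± 0.273 to 4.85 ± 1.62 CPM (log2 fold change 1.5, SE 0.43, edgeR adjusted p = 0.0269). With 1 library left out, the call of SOCS1 was lost in 5 of 6 fits (edgeR adjusted p up to 0.103), all but that without CYT replicate 2, and that of IFNLR1 in 4 of 6 (up to 0.08), all but those without CYT replicate 2 or 3. The list held 1 to 4 called genes in these fits, and with the replicate number as a block 6 were called, 2 higher and 4 lower. The block also raised the number of called genes among all genes, from 4451 to 6209, so the 28.6% is not its background.

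Of 17 tested genes for repression, silencing and turnover of class I, 1 rose, 3 fell and 13 were not called, against 28.6% of all tested genes called, with a median of -0.05. After the correction for GC content and gene length 4 were higher and 4 lower. This correction also raised the number of called genes among all genes, from 4451 to 7240, so the 28.6% is not its background. EHMT2, a histone H3 lysine 9 methyltransferase, fell from 147 ± 34.5 to 37.7 ± 14.7 CPM (log2 fold change -1.96, SE 0.38, edgeR adjusted p = 0.00523). MARCHF4, a ubiquitin ligase that removes class I from the cell surface, fell from 10.7 ± 1.39 to 3.06 ± 0.983 CPM (log2 fold change -1.80, SE 0.37, edgeR adjusted p = 0.00667), and DNMT1, the maintenance DNA methyltransferase, fell from 242 ± 41.6 to 118 ± 23.0 CPM (log2 fold change -1.04, SE 0.29, edgeR adjusted p = 0.0255). The call of DNMT1 was lost in 4 of 6 fits with 1 library left out (edgeR adjusted p up to 0.0936), namely without CYT replicate 1 or 3 and without control replicate 1 or 3. SUSD6, a membrane protein that takes part in the degradation of class I molecules, rose from 11.6 ± 2.97 to 37.5 ± 7.32 CPM (log2 fold change 1.69, SE 0.33, edgeR adjusted p = 0.00526). EZH2, the methyltransferase of Polycomb repressive complex 2, was not called (log2 fold change 0.53).

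**Figure D5:**
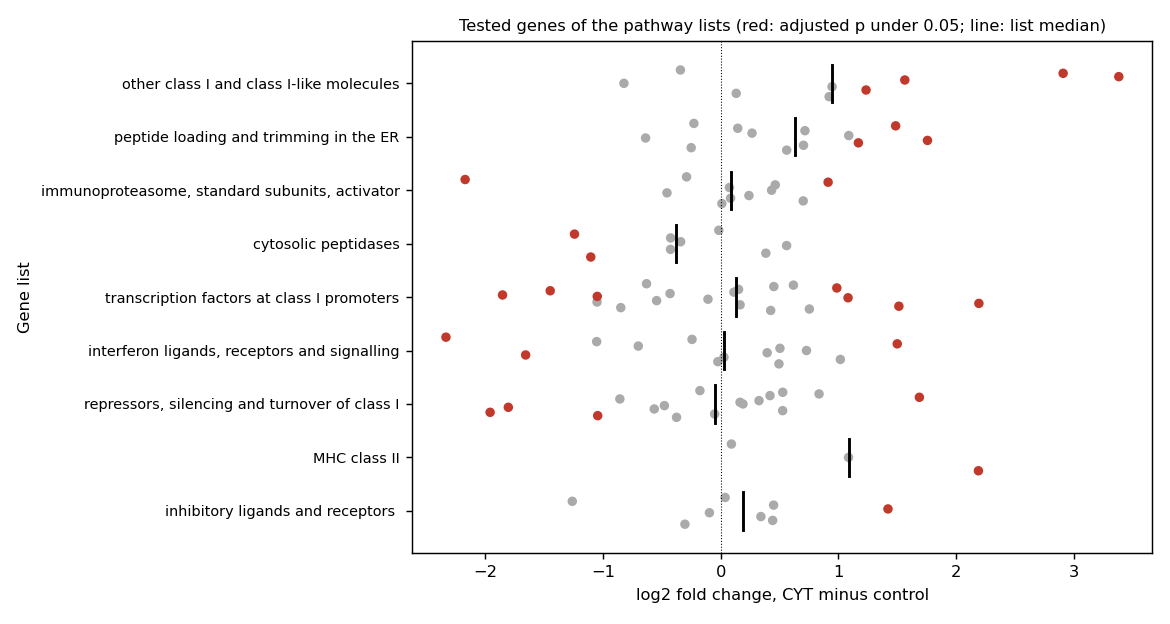
log2 fold change (x axis, CYT minus control) of each tested gene in 9 lists of the class I pathway and its surroundings, red where the edgeR adjusted p was under 0.05, with a black line at the median of the list. The genes called in the ER loading list all lie to the right of 0, and the proteasome, transcription factor, interferon and repressor lists hold called genes on both sides.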

How the data were processed

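Per the study's methods the authors aligned clean reads with Hisat2 and named Stringtie for expression values, and the submitters' processing notes name hg38 and FastQC 0.12.1. The authors deposited raw counts per gene. The deposited FPKM values were used for levels and ratios within a library. Neither the counting program, nor whether it used the strand, nor how it handled multiply mapped reads is given in the sources used here. Groups and replicate numbers came from the sample titles, and exon models from GENCODE release 29 on the same assembly.

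Counts were tested with edgeR 4.0.16 in R 4.3.3 (TMM, filterByExpr with a minimum count of 10, quasi-likelihood test with group as the only term, Benjamini-Hochberg adjustment over 15572 genes). The fit was also run on simulated counts. These held far fewer changed genes than the real data and no replicate effect, so they say little about the results here. The biological coefficient of variation was 37.5%. Each standard error is the log2 fold change over the root of F, and intervals have a level of 95%. Limits for counts of 0 cover counting error only.

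The 9 genes, the 9 pathway lists and the 5 marker lists were chosen with earlier results of these data known, and 4 genes of these lists are not reported here. The text names in each list at most 4 called genes with the largest absolute log2 fold change, genes that overlap a member, and for HLA-B, B2M and TAP1 the 3 protein-coding genes of at least 5 CPM with the most similar pattern. STAT2, NFYB, NFYC, uncalled list genes and the markers were named after their values were seen.

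Replicates were not copies of 1 library (chi-square per gene of 24.8 or more). The deviations from the group mean correlated between same-numbered libraries (r over genes 0.237 for number 1, 0.51 for number 2 and 0.137 for number 3). Control replicate 1 with CYT replicate 3 reached 0.358, and control replicate 3 with CYT replicate 1 reached 0.223. Only for number 2 was the same-numbered pair the closest. Pairing by number was thus not settled, and the replicate block served as an alternative only. The alternatives were DESeq2 1.42.0, upper-quartile scaling, no filter, a filter on a mean of 5 CPM, a replicate block, limma 3.58.1 on log2(FPKM + 1) or log2(FPKM + 0.1), a correction for GC content and length with and without the block, and leaving out each library in turn. Counts per kilobase of merged exons in place of FPKM were added after seeing the data.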

Additional observations from a re-analysis of the deposited data

How the results depend on the processing

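HLA-B, HLA-E, TAP1 and NLRC5 kept their direction and their call under all 15 alternatives, with log2 fold changes of 2.16 to 2.49, 1.82 to 2.13, 1.71 to 2.09 and -2.24 to -0.54. The value of -0.54 came from log2(FPKM + 1), which understates the change of low genes by construction, as does the 0.20 that HLA-F had there. HLA-C kept its direction under all 15, and with 1 library left out its log2 fold change ran from 0.97 to 1.32 with 4 of 6 calls lost. B2M ran from -0.022 to 0.82 with 1 library left out, and turned negative without CYT replicate 1. With the GC content and length correction TAP2 (0.66) and TAPBP (0.75) were called, as they were when the replicate block was added to it (0.65 and 0.74), and the cause was not tested. The number of the 9 genes called was from 4 to 7. The replicate block, which pairs the libraries by number, changed no call among the 9 genes and gave 2.29 for HLA-B, 1.12 for HLA-C, 1.95 for HLA-E, 1.89 for TAP1 and -1.87 for NLRC5. Whether the libraries were paired by number is not settled.

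Over all genes, 4451 were called (2449 higher, 2002 lower) and 4274 were differentially expressed. These became 2859 and 2710 under the filter on a mean of 5 CPM, which tested fewer genes. Differentially expressed genes numbered 2375 with limma on log2(FPKM + 1), and called genes 7240 with the GC content and length correction and 7131 with the replicate block added. With 1 library left out, called genes ran from 2731 to 5523 and differentially expressed genes from 2731 to 4740, with 2836 of both without control replicate 1 and 2731 of both without control replicate 3.

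The cause of the next changes was not tested. Among all genes, DESeq2 called 5282, upper-quartile scaling 4503, the replicate block 6209, and no filter, which tested more genes, 5130. The GC content and length correction called 7240 of all genes, and 7131 with the block. Called genes in the list of other class I molecules were 4, and 7 with the GC content and length correction and block. In the ER loading list they were 3, and 5 with DESeq2 and with upper-quartile scaling, and 8 with the correction, with or without the block. In the proteasome list they were 2, then 4 with the correction and block and 1 with no filter. In the transcription factor list they were 7. In the interferon list they were 3, then 6 with the replicate block and 8 with the correction, with or without the block. In the repressor list they were 4, and 8 with the correction, with or without the block. In the MHC class II list they were 1, and 2 with DESeq2, with no filter, with the replicate block and with the correction and block. In the inhibitory ligand list they were 1, and 2 with no filter and with the correction, with or without the block. With 1 library left out these lists held 2 to 6, 1 to 5, 1 to 2, 1 to 7, 1 to 4, 3 to 5, 1 to 2 and 0 to 1 called genes, in the same order, and the cytosolic peptidase list, with 2, held 0 to 4. The log2 fold change of PSMB9 was -0.060 with the correction and block and -0.033 with the correction alone, and ran from -0.13 (without CYT replicate 3) to 0.26 with 1 library left out, and was -0.016 without control replicate 2. The log2 fold change of SNUPN was -0.026 and -0.016 in the same 2 fits and ran from -0.0090 (without CYT replicate 1) to 0.34. With 3 libraries a group, changes such as that of TAP2 were within the error of the test, and the 25 to 43 counts of HLA-F limit its precision.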

Other observations

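Of 9 tested genes of other class I and class I-like molecules 4 rose, none fell and 5 were not called, against 28.6% of all tested genes called, with a median log2 fold change of 0.95 against 0.0064 over all tested genes. In the fits with the GC content and length correction and without CYT replicate 2, 1 gene of the list was called lower. The 4 that rose, a grouping made after the values were seen and not tested, encode stress-induced ligands of NKG2D, an activating receptor of natural killer cells and CD8+ T cells. ULBP2 had 410, 317 and 286 counts in control and 2360, 2116 and 1954 in CYT replicates 1 to 3, with no overlap and a log2 fold change of 2.91 (SE 0.30, edgeR adjusted p = 0.00052). RAET1L had 7, 7 and 13 counts in control and 79, 82 and 84 in CYT (log2 fold change 3.38, SE 0.49, edgeR adjusted p = 0.00156), and RAET1G had 53, 29 and 18 against 112, 64 and 72 (1.56, SE 0.47, edgeR adjusted p = 0.0335). MICB rose from 109 ± 18.6 to 257 ± 41.2 CPM (SD, n = 3, log2 fold change 1.24, SE 0.29, edgeR adjusted p = 0.0115). The related gene MICA did not pass the test (131 ± 30.6 against 144 ± 35.5 CPM, log2 fold change 0.13, edgeR adjusted p = 0.789), nor did ULBP3 (log2 fold change -0.34) or RAET1E, another such ligand, which had 9.96 ± 1.06 CPM in control and 5.62 ± 1.73 CPM in CYT (log2 fold change -0.82, SE 0.35, edgeR adjusted p = 0.107). The calls of MICB and of RAET1G were lost under 1 of 15 and 4 of 14 alternatives.

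MHC class II, which presents peptides from outside the cell, had low counts in most of its genes. Of 13 genes 10 had too few counts to be tested, and HLA-DRA had 0, 0 and 0 counts in control and 1, 1 and 1 in CYT, while HLA-DMA, a chaperone of class II peptide loading, had 130, 55 and 81 against 213, 118 and 154 counts and was not called (log2 fold change 1.09, SE 0.43, edgeR adjusted p = 0.0882). CIITA, the class II counterpart of NLRC5, had 6, 15 and 10 against 9, 26 and 9 counts. Of 3 tested genes in this list 1 was called, against 28.6% of all tested genes called. This gene, CTSS, a lysosomal protease, rose from 27, 41 and 38 to 98, 235 and 81 counts (log2 fold change 2.19, SE 0.48, edgeR adjusted p = 0.00843). Of 8 tested inhibitory ligands and related surface molecules that class I recognizing cells meet, 1 rose and none fell, against 28.6% of all tested genes called, with a median of 0.19. The 1 was ICAM1, an adhesion ligand of T cells, which went from 25.4 ± 7.92 to 68.1 ± 27.2 CPM (log2 fold change 1.42, SE 0.40, edgeR adjusted p = 0.0259), a call lost under 4 of 15 alternatives. CD274, which encodes PD-L1, had 122, 174 and 121 counts in control and 122, 88 and 73 in CYT and was not called (log2 fold change -0.30, edgeR adjusted p = 0.523).

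The genes whose log2 CPM over the 6 libraries was most like that of HLA-B, among 10560 protein-coding genes, were TNXB, SMAP2 and GBA2, each with a Pearson r of 0.998 and log2 fold changes of 5.32, 1.33 and 2.20. Those most like TAP1 were LRRC41, EPOR and ASF1B (r of 0.997 each), with log2 fold changes of 1.75, 1.51 and 2.12. For B2M they were SNUPN (0.991), RAPH1 (0.977) and MCCC1 (0.955), none of which was called. These correlations are over 6 libraries that fall into 2 groups and are given as a description.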
